A study of Mytilus galloprovincialis with 8 samples.

Results

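A set of 20 probes out of 51300 on a custom mussel microarray gave a lower signal in gill of exposed mussels in both replicates, with a mean digestive gland ratio inside a window around 0. The members were chosen by measured values. The ratio is the background-subtracted signal of exposed over control RNA on the log2 scale, with 50 intensity units added to each channel and each array centred on its median, averaged over an array and its dye swap. Members had a ratio below -0.7 in both gill replicates and a mean digestive gland ratio between -0.5 and 0.5. The gill and digestive gland ratios, and every fit on the same contrast, therefore describe the members and test nothing about them.

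The samples were digestive gland and gill of adult Mediterranean mussels (*Mytilus galloprovincialis*) from a site free of blooms, all fed on *Tetraselmis suecica* and *Isochrysis galbana*. The exposed mussels also received a *Prorocentrum lima* culture for 24 h, and the control mussels did not. The sample records give the dose as 200 cells/ml, whereas the methods give the same number per litre. Each RNA came from pooled tissue of 5 mussels, and each tissue had 2 replicates. A replicate was hybridised on 1 array and again with the dyes swapped, which makes 8 arrays. On the first array of a replicate the exposed RNA was red and the control RNA green, and on the swap the reverse. Nothing in the records says whether the pools came from separate tanks, so the spread between replicates may not hold the spread between cultures. Whether the gill and digestive gland pools with the same number came from the same mussels is not stated either.

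Okadaic acid, the toxin of *Prorocentrum lima*, inhibits the serine and threonine protein phosphatases PP1 and PP2A, and so raises the phosphorylation of many proteins. It enters bivalves with the food. The gill is a ciliated epithelium that draws in water, exchanges gas and sorts particles, and it is in direct contact with suspended algal cells. The digestive gland takes up the food and is the main store of the toxin. The probes of the array were designed from contigs assembled out of digestive gland libraries, so transcripts absent from those libraries have no probe. In pooled whole tissue, fewer cells of a type and less RNA per cell cannot be told apart.

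Members are named here by contig and probe identifier, because the files pair no probe with a gene and none of the 51300 contig names matched the reference gene table used here. Their functions and their sequences are thus not given. No gene could serve as a marker of either tissue. Control levels of arrays of the same tissue correlated across probes at 0.989 to 0.994 in gill and at 0.993 to 0.997 in digestive gland, against 0.764 to 0.776 between tissues. The share of spots well above background in both channels was 37.0% to 39.6% on the gill arrays and 51.7% to 57.4% on the digestive gland arrays. All arrays came from 1 slide, with digestive gland in 1 row and gill in the other, so that row and tissue cannot be told apart. For 1 array of digestive gland the records call the red dye Cy6, taken here to be Cy5. Its correlation across bright probes with the remaining arrays of that tissue was 0.649 to 0.848, and the set held 17 probes without it, 15 of them members.

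Few probes of any kind were lower in gill. Below -0.7 in both gill replicates lay 82 probes, or 0.16% of all, and 59 of these also had a mean digestive gland ratio below -0.5. Another 3 had a digestive gland ratio above 0.5, which leaves the 20 members. The mirrored rule, above 0.7 in both gill replicates with the same digestive gland window, found 295 probes. Lower probes made up 6.35% of the gill-only probes of both directions under this rule. That share depended on the scaling: with background correction by normexp and an intensity-dependent (loess) normalization 82 probes were lower and 141 higher, so that the lower probes made up 36.8%, and 19 of the 20 members were among them. In the authors' own table of ratios the share was 33.3%.

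**Figure D1:**
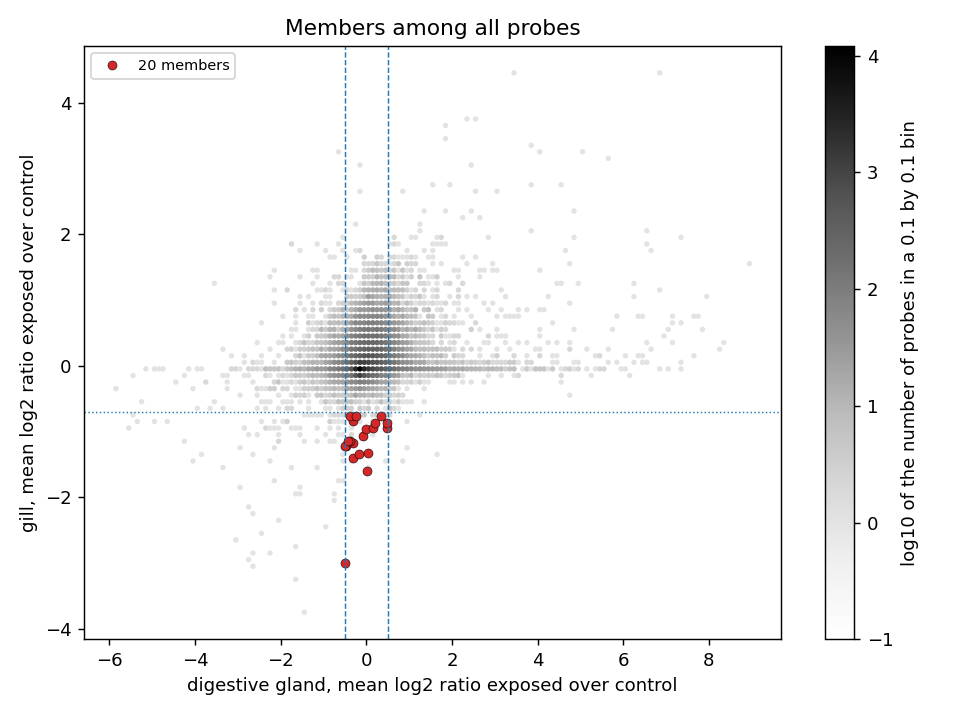
Mean log2 ratio of exposed over control in gill (vertical axis) against that in digestive gland (horizontal axis) for all 51300 probes, with the 20 members picked out and the window of the rule drawn. The members lie between -0.49 and 0.49 in digestive gland and between -3.00 and -0.77 in gill.

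The gill ratio of the members ran from -2.23 to -0.73 in replicate 1, with a median of -1.15, and from -3.78 to -0.71 in replicate 2, with a median of -0.84. The median of all probes was -0.01 and -0.03 in these replicates. The mean ratio was below -1 for 11 members, and both replicates were below -1 for 6. Replicate 1 was the lower of the pair for 13 members. The gap between the gill replicates had a median of 0.40, against 0.12 over all probes, which were not matched to the members in signal. It was under 0.1 for 6 members and over 0.5 for 7. Across all probes the 2 gill replicates correlated at 0.433 in their ratios, against 0.806 for digestive gland.

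**Figure D2:**
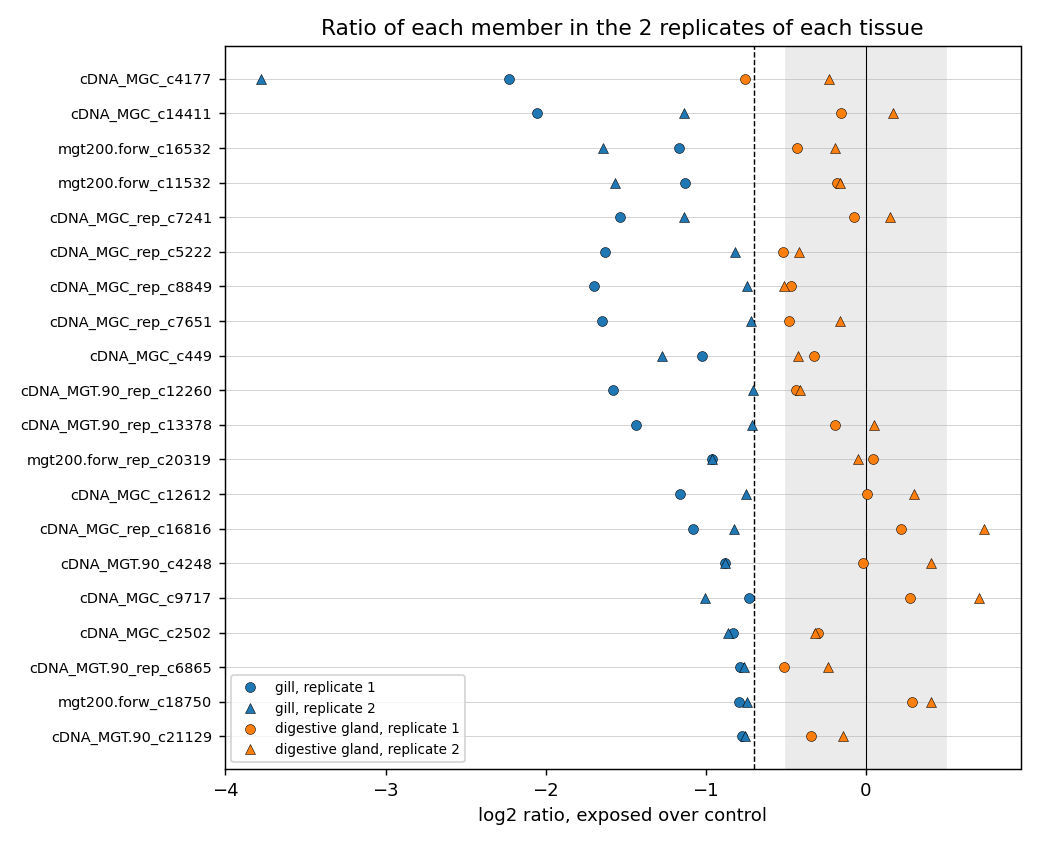
Log2 ratio of exposed over control for each of the 20 members in both replicates of gill and of digestive gland, members ordered by mean gill ratio. Gill points all lie below the threshold of -0.7, while digestive gland points scatter around 0, from -0.76 to 0.74.

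The member with the lowest gill ratio was cDNA_MGC_c4177 (CUST_4177_PI427859148). On the gill arrays its background-subtracted exposed intensity was 241 and 162 in replicate 1 (array and swap) and 47 and 14 in replicate 2, against control intensities of 768, 1588, 673 and 1351. The exposed signal was below the control signal on each of the 4 arrays, and the exposed pool of replicate 2 was the dimmer. The ratio was -2.23 in replicate 1 and -3.78 in replicate 2, with a mean of -3.00 ± 1.10 (SD, n = 2), which is 8.03-fold lower. The gap of 1.55 between its replicates was the largest of any member. In digestive gland its exposed intensities of 1124.5, 428, 1646 and 888 stood against control intensities of 596, 2398, 560.5 and 2211, so that each array was on the other side of the control from its swap. The digestive gland ratio was -0.76 and -0.23, with a mean of -0.49 just inside the window. With an offset of 20, with loess, with the processed signals of the scanner software and with the authors' table it was no longer in the set.

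The second was cDNA_MGC_c14411 (CUST_14374_PI427859148), with exposed intensities of 124, 90, 348.5 and 145 against control intensities of 404, 867.5, 368.5 and 726 on the gill arrays. Its ratio was -2.06 and -1.14, with a mean of -1.60 ± 0.65 (SD, n = 2), or 3.02-fold lower. Its digestive gland ratios of -0.16 and 0.17 lay on both sides of 0. Its digestive gland mean of 0.01 averaged ratios of 0.83 and 0.98 on the arrays with -1.14 and -0.635 on the swaps. In gill the ratio was past -1 in both replicates, but replicate 2 was at -0.31 on the array and -1.96 on the swap.

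Among the other members of the control library, cDNA_MGC_rep_c7241 (CUST_7241_PI427859148) had gill ratios of -1.53 and -1.14 and digestive gland ratios of -0.08 and 0.15. Its gill exposed intensities were 20, 14, 83 and 25, and its control intensities 87, 221, 101 and 227. The exposed channel was the dimmer on all 4 arrays, by the least on the first array of replicate 2. For cDNA_MGC_c449 (CUST_449_PI427859148) the gill ratios were -1.02 and -1.27, and it was below -0.7 on each of the 4 arrays, as was cDNA_MGC_c4177. These were the only 2 members to pass that mark on every gill array, which 0.0702% of all probes did. Of the others, 11 passed it on 3 gill arrays and 7 on 2. Every member passed it on both dye swaps, so each miss was on a first array, where the exposed RNA was red. A ratio below 0 on all 4 gill arrays was found for 18 members and for 5.25% of all probes. The exceptions were cDNA_MGC_c12612 (CUST_12603_PI427859148), at 0.63 on the first array of replicate 2, and cDNA_MGT.90_c21129 (CUST_33850_PI427859148), at 0.03 there.

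An exposed signal that was not well above background limits what the ratio can say for 4 members. Other members were well above background but had exposed intensities below the added 50 units on some gill arrays. An example is cDNA_MGC_rep_c7241, at 20 and 14 in replicate 1. The size of their ratios depends on that offset too. All 20 members were well above background in the control channel on all 4 gill arrays, against 35.6% of all probes. In the exposed channel 16 were, against 37.3% of all probes. Both cDNA_MGC_c449 and cDNA_MGT.90_c4248 (CUST_21119_PI427859148) had an exposed signal that was not well above background on any gill array. Against the lowest signal measurable on those arrays, or the probe's own where higher, cDNA_MGC_c449 was at least 2.10-fold and cDNA_MGT.90_c4248 at least 1.75-fold lower in exposed gill. The exposed intensity of cDNA_MGC_c449 was 0.5, 2, 0 and 3 on the gill arrays, and its control intensity 35, 76, 45 and 91. For mgt200.forw_c16532 (CUST_48364_PI427859148) and mgt200.forw_c11532 (CUST_44635_PI427859148) the exposed channel was well above background on 3 of the 4 arrays. In digestive gland the control channel of 19 members was well above background on all 4 arrays, against 50.8% of all probes. The exposed channel was for 18, against 56.4% of all probes, cDNA_MGC_c2502 (CUST_2502_PI427859148) and cDNA_MGC_rep_c8849 (CUST_8848_PI427859148) being the others. No member had a saturated or outlier-marked spot on any array.

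Contig names carry the code of the library they came from. Read by the codes of the methods, cDNA_MGC stands for the normalized library of control mussels and cDNA_MGT for that of exposed mussels. The mgt200.forw contigs were read as the forward subtractive (SSH) library, built to enrich for transcripts more abundant in exposed digestive gland. Of the members 11 came from the control library, or 55.0% against 33.2% of all probes. The exposed library gave 5 members and 37.4% of all probes, and the forward library 4 members and 29.4% of all probes. The 59 probes lower in both tissues had another makeup, with 52 from the control library, 7 from the exposed library and 0 from the forward library. Every forward library probe below -0.7 in both gill replicates, 4 in all, was thus a member.

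The 4 forward library members had mean gill ratios of -1.41 to -0.77. For mgt200.forw_c16532 the gill ratio was -1.17 and -1.64, and for mgt200.forw_c11532 it was -1.13 and -1.57. Both were lower in replicate 2 than in replicate 1, the reverse of most members. The gill ratio of mgt200.forw_rep_c20319 (CUST_51115_PI427859148) was -0.96 in both replicates, with digestive gland ratios of 0.04 and -0.05, the pair nearest to 0 of any member. That pair averaged digestive gland ratios of 0.66 and 0.73 on its arrays with -0.575 and -0.82 on its swaps. Its intensities were well above background, at 391.5, 220, 421 and 336.5 in exposed and 468, 813, 649.5 and 806 in control gill. For mgt200.forw_c18750 (CUST_50060_PI427859148) the gill ratios were -0.79 and -0.74, against digestive gland ratios of 0.29 and 0.40. Its replicate means were thus below 0 in gill and above 0 in digestive gland. On single digestive gland hybridisations it was 0.92 and 0.88 on the arrays, but -0.35 and -0.08 on the swaps. In gill it was -0.56 and -0.01 on the arrays and -1.03 and -1.47 on the swaps.

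The 5 exposed library members ranged from -1.14 to -0.77 in mean gill ratio. The lowest were cDNA_MGT.90_rep_c12260 (CUST_26658_PI427859148), at -1.58 and -0.71, and cDNA_MGT.90_rep_c13378 (CUST_27379_PI427859148), at -1.44 and -0.71. For both, replicate 2 lay just inside the threshold. The gill ratios of cDNA_MGT.90_rep_c6865 (CUST_23524_PI427859148) were -0.79 and -0.76 and those of cDNA_MGT.90_c21129 -0.78 and -0.76, close to each other in both cases. For cDNA_MGT.90_c4248 the ratio was -0.88 in both replicates, but its exposed intensities of 6, -1, -4 and -2 were at background, so that the added 50 units set the exposed side of that ratio.

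Together with cDNA_MGC_rep_c7651 (CUST_7650_PI427859148), at -0.71 in replicate 2, these first 2 contigs were the members just inside the gill threshold. Just outside it lay cDNA_MGT.90_c22933 (CUST_35337_PI427859148), cDNA_MGT.90_rep_c9644 (CUST_25369_PI427859148) and cDNA_MGC_rep_c14752 (CUST_14707_PI427859148), each at -0.69 in the replicate that missed. Another 3 probes below -0.7 in both gill replicates missed the digestive gland window, cDNA_MGC_rep_c7211 (CUST_7211_PI427859148) and cDNA_MGC_rep_c8609 (CUST_8608_PI427859148) at -0.51 and cDNA_MGC_rep_c7946 (CUST_7945_PI427859148) at -0.52. The members at the edge of the set therefore differ from their neighbours outside it by a few hundredths.

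Several of these neighbours shared a profile. A probe was called alike to a member when their ratios lay within 0.4 of each other on each of the 8 arrays, a tolerance chosen after the values were seen. Around cDNA_MGC_rep_c5222 (CUST_5222_PI427859148) such a group held 9 probes, 4 of them members. The other three members were cDNA_MGC_rep_c8849, cDNA_MGC_rep_c7651 and cDNA_MGT.90_rep_c12260. Of the 5 probes that were not members, 3 missed the digestive gland window and 2 the gill threshold. The 9 probes lay at -1.80 to -1.39 in gill replicate 1, at -0.86 to -0.66 in gill replicate 2 and at -0.52 to -0.32 in digestive gland. The tolerance itself fixes their shared order, with gill replicate 1 lowest, so that order is not a result. Of the 9 probes, 8 came from the control library. Whether they stand for 1 transcript or for several could not be told without their sequences, so they are not counted as independent here.

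For cDNA_MGC_rep_c5222 the exposed gill intensity was 28 and 14 in replicate 1 and 106 and 60 in replicate 2, while the control intensity was 90, 286, 163 and 166. The exposed signal was thus higher in replicate 2 on both orientations. The ratio was -1.63 and -0.82, and in digestive gland -0.52 and -0.42. For cDNA_MGC_rep_c8849 the gill ratios were -1.70 and -0.74 and the digestive gland ratios -0.47 and -0.51, its mean of -0.49 again close to the edge of the window. The gill ratios of cDNA_MGC_rep_c7651 were -1.65 and -0.71, with -0.48 and -0.16 in digestive gland. All 4 members of the group were below 0 in digestive gland too, in both replicates, which the tolerance around cDNA_MGC_rep_c5222 requires.

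Other pairs of members were alike. The gill ratios of cDNA_MGC_rep_c16816 (CUST_16747_PI427859148) were -1.08 and -0.82 and those of cDNA_MGC_c9717 (CUST_9716_PI427859148) -0.73 and -1.01, and their ratios differed by at most 0.37 on any array. Their spots lay side by side on the array, in row 279, columns 101 and 102, and the second spot of cDNA_MGC_rep_c16816, in another place, gave ratios within 0.15 of the first. These 2 members had the highest mean digestive gland ratios of the set, 0.22 and 0.74 for cDNA_MGC_rep_c16816 and 0.27 and 0.71 for cDNA_MGC_c9717, with means of 0.48 and 0.49. The pair cDNA_MGT.90_rep_c6865 and cDNA_MGT.90_c21129 differed by at most 0.30 on any array. A probe within 0.4 was found for 9 members in all, and none for the other 11. The profile of cDNA_MGC_c4177 was the most isolated, its nearest probe being 1.46 away on at least 1 array.

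Levels of the single pools were read after normalization between arrays. Both control pools were above both exposed pools in gill for all 20 members, which the rule favours, against 16.0% of all probes. The gap between the 2 control pools had a median of 0.20 on the log2 scale and reached 0.39, whereas that between the 2 exposed pools had a median of 0.51 and reached 2.22. Over all probes the gaps were alike, with medians of 0.09 between control and 0.10 between exposed pools. The members' exposed pools were thus farther apart than their control pools, and both median gaps were larger than over all probes. All probes are not matched to the members in level, as only 35.6% of them had a control channel well above background on every gill array. Whether the members vary more than probes of like level was not tested. For cDNA_MGC_c4177 the control level was 11.64 and 11.33 and the exposed level 9.36 and 7.14. For cDNA_MGC_c14411 the control level was 10.64 and 10.62, and the exposed level 8.57 and 8.93. For cDNA_MGC_rep_c7241 the control level was 8.63 and 8.86, against 7.19 and 7.39 in the exposed pools, a gap within each condition of 0.23 and 0.19. In digestive gland both control pools were above both exposed pools for 13 members. The share over all probes is not given for this tissue, and the window admits ratios below 0, so nothing is read from that count.

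**Figure D3:**
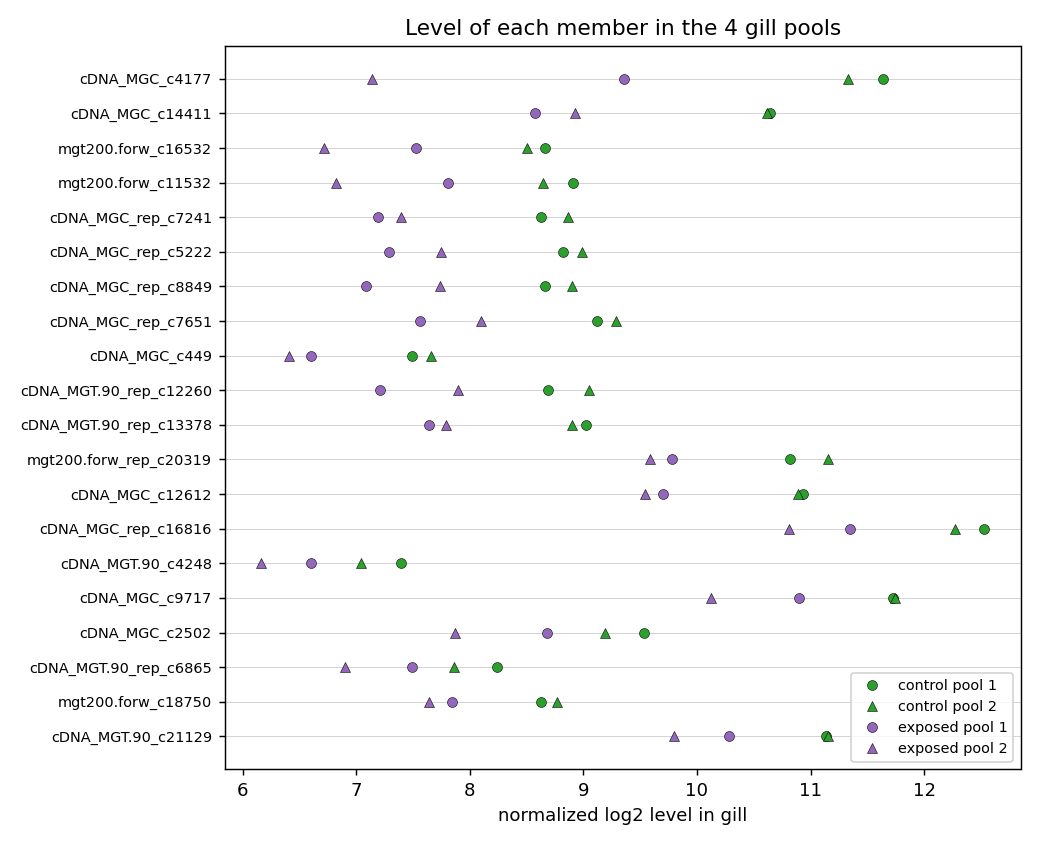
Normalized log2 level of each member in the 2 control and the 2 exposed gill pools. Both control points lie to the right of both exposed points for each of the 20 members, and the exposed points of cDNA_MGC_c4177, at 9.36 and 7.14, are the farthest apart.

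The digestive gland window admitted members of different kinds. The mean digestive gland ratio ran from -0.49 to 0.49 with a median of -0.21, against -0.10 over all probes. It lay within 0.25 of 0 for 8 members and beyond 0.4 for 6. Below 0 in both digestive gland replicates lay 11 members, and above 0 in both lay 4. These are means over array and swap, and each of these 4 was below 0 on the digestive gland swap of replicate 1. The lowest were cDNA_MGC_c4177 and cDNA_MGC_rep_c8849, both with a mean of -0.49. The control library contigs cDNA_MGC_rep_c5222, cDNA_MGC_c449, cDNA_MGC_rep_c7651 and cDNA_MGC_c2502 had mean digestive gland ratios of -0.47, -0.37, -0.32 and -0.31. The gill ratios of cDNA_MGC_c2502 were -0.83 and -0.86. For cDNA_MGC_c12612 the gill ratios were -1.16 and -0.75 and those in digestive gland 0.01 and 0.30.

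The fit with limma of both tissues, on loess-normalized ratios averaged over the dye swap, gave the members' values on a second scale. In gill the log2 fold change of the members ran from -3.23 to -0.83 with a median of -1.31, and its standard error from 0.04 to 0.48. After Benjamini-Hochberg adjustment over all probes 1 of 20 members was called in gill, where 0.0293% of all probes were called and 0.0195% were called lower. It was cDNA_MGC_rep_c7241, at -1.45 with a standard error of 0.04 and a limma adjusted p of 0.0467. Over the other settings its adjusted p ran from 4.57e-05 with arrays entered separately to 0.153 without a digestive gland replicate. The adjusted p of the 20 members ran from 0.0467 to 0.115. All 20 had an unadjusted limma p under 0.05, against 14.3% of all probes in either direction and 7.15% lower. The rule used this contrast, so nothing is read from these counts. With 2 replicates per tissue the fit had 2 residual degrees of freedom, and the number of members called in gill went from 0 to 20 with the processing.

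In digestive gland 1 of 20 members was called, where 17.8% of all probes were called. It was cDNA_MGT.90_rep_c6865, with a log2 fold change of -0.43 and a limma adjusted p of 0.0258. This call was lost without either digestive gland replicate (adjusted p of 0.134 and 0.128), without the array named Cy6 (0.0589), with a normexp offset of 0 (0.139), with median centring (0.156) and with processed signals (0.149). On the scale of the rule its digestive gland ratios were 0.17 and 0.39 on the arrays and -1.20 and -0.86 on the swaps. An unadjusted p under 0.05 in digestive gland was found for 7 members, against 31.1% of all probes. The members' log2 fold change in digestive gland ran from -0.65 to 0.32 on this scale, the lowest being that of cDNA_MGC_c4177, which had a limma adjusted p of 0.466. A missed threshold does not show that a transcript was unchanged in digestive gland.

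The difference between the tissues is the measure that bears on the word only. By limma 11 of 20 members were called for a lower ratio in gill than in digestive gland, where 9.68% of all probes were called in either direction and 5.01% were called lower in gill. The rule used both sides of this contrast, so the count is again a description. Taken as digestive gland minus gill, the difference ran from 0.43 to 2.58 with a median of 1.10, and its limma adjusted p from 0.00343 to 0.123. All 20 had an unadjusted p under 0.05, against 12.9% of all probes for lower in gill. The smallest limma adjusted p was that of cDNA_MGC_rep_c7241, 0.00343, with a difference of 1.42 and a standard error of 0.06. It was followed by cDNA_MGC_c12612, at 1.28 and 0.00864, by cDNA_MGC_rep_c16816, at 1.62 and 0.00966, and by cDNA_MGC_c14411, at 1.75 and 0.0119. The largest difference, 2.58 for cDNA_MGC_c4177, had a standard error of 0.67 and an adjusted p of 0.105. By library, 7 of the 11 control library members, 3 of the 5 exposed library members and 1 of the 4 forward library members were called. The share of all probes called within each library is not given, so nothing is read from this split. For the other 9 members, cDNA_MGC_c4177, cDNA_MGC_c449, cDNA_MGC_c2502, cDNA_MGC_c9717, cDNA_MGT.90_rep_c6865, cDNA_MGT.90_c21129, mgt200.forw_c16532, mgt200.forw_c11532 and mgt200.forw_rep_c20319, the gill ratio was not shown to differ from the digestive gland ratio. Without digestive gland replicate 1 the same fit called 3 members and 3.31% of all probes, and without digestive gland replicate 2 it called 2 members and 1.76% of all probes.

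**Figure D4:**
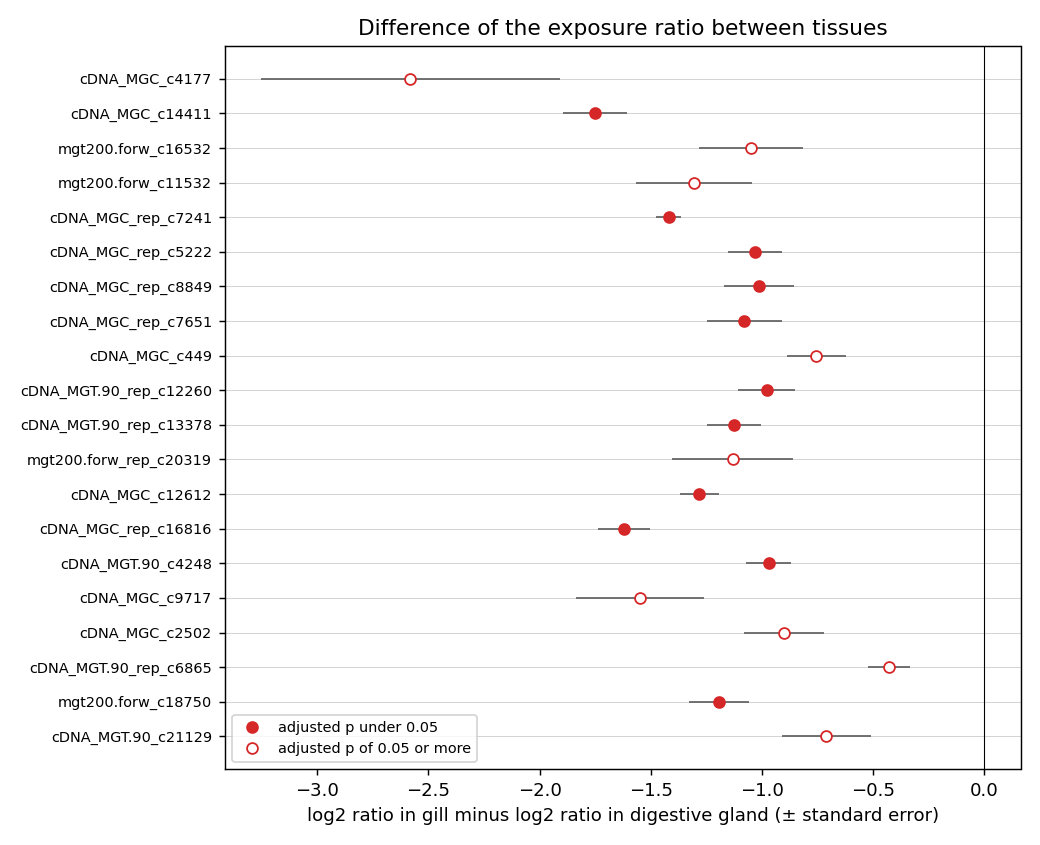
Difference of the log2 exposure ratio, gill minus digestive gland, for each member with its standard error from the limma fit of both tissues. A lower ratio in gill is drawn as a negative value. Members past an adjusted p of 0.05 are marked, 11 of 20. The difference largest in size, 2.58 for cDNA_MGC_c4177, carries the widest error bar, 0.67.

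The part of the ratio that cancels over the dye swap was not used by the rule. On the median-centred scale of the rule, the swap was lower than its array for 39 of the 40 gill pairs of members, or 97.5%, against 53.0% of the pairs of all probes. In digestive gland it was lower in 34 of 40 pairs, or 85.0%, against 52.4%. The exposed over control ratio was thus lower where the exposed RNA was green. For cDNA_MGT.90_c21129 the gill ratios were -0.10 and 0.03 on the arrays and -1.45 and -1.55 on the swaps. With loess normalization the dye effect of the members in gill ran from -0.29 to 0.26 log2 with a median of 0.00, and its median size was 0.08, against 0.05 over all probes. By limma 0 of 20 members were called for it, as were 0.0% of all probes, and 1 of 20 had an unadjusted p under 0.05, against 9.29% of all probes. That member was cDNA_MGT.90_rep_c6865, at 0.18. With median centring in place of loess 11 of 20 members were called for a dye effect in gill, against 20.9% of all probes, with a median size of 0.41 against 0.11. Both orientations enter each replicate mean of the rule equally. Only a part of the ratio that is equal in size and opposite in sign on array and swap cancels there. Whether some of the dye effect remained in the ratios that chose the members was not tested.

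For 3 members the array held 2 spots. The 2 spots of cDNA_MGC_c12612 gave ratios within 0.12 of each other on all 8 arrays, and those of cDNA_MGC_rep_c7651 within 0.43. The array with a ratio above 0 for cDNA_MGC_c12612 in gill was seen at both of its spots, at 0.69 and 0.58. The other 17 members rest on 1 spot per array.

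In control mussels all 20 members were brighter in gill than in digestive gland after normalization between arrays. The difference of gill minus digestive gland ran from 0.47 to 3.90 log2 with a median of 2.18, against a median of 0.07 over all probes. All 20 were called higher in gill by limma, where 32.4% of all probes were called higher in gill and 19.7% higher in digestive gland. The rule favours probes with a measurable gill control signal, so this is a description. The largest differences were those of cDNA_MGC_c9717 (3.90) and cDNA_MGC_rep_c16816 (3.71), and the smallest those of cDNA_MGT.90_c4248 (0.47) and cDNA_MGT.90_rep_c6865 (0.94). The direction depended on the scaling. With loess alone the median of all probes was -0.30, and 13 members were above 0. By limma 10 members were then called higher in gill, against 1.78% of all probes, and 3 higher in digestive gland, against 53.1%. The 7 members that turned were cDNA_MGC_c4177, cDNA_MGC_c12612, mgt200.forw_c16532, mgt200.forw_rep_c20319, cDNA_MGT.90_c4248, cDNA_MGT.90_rep_c6865 and cDNA_MGT.90_c21129. Scaled to the 75th percentile the median of all probes was 1.26, and the members lay between 0.52 and 3.55. Under both of these scalings 17 members were above the median of all probes, and under the first all 20 were.

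**Figure D5:**
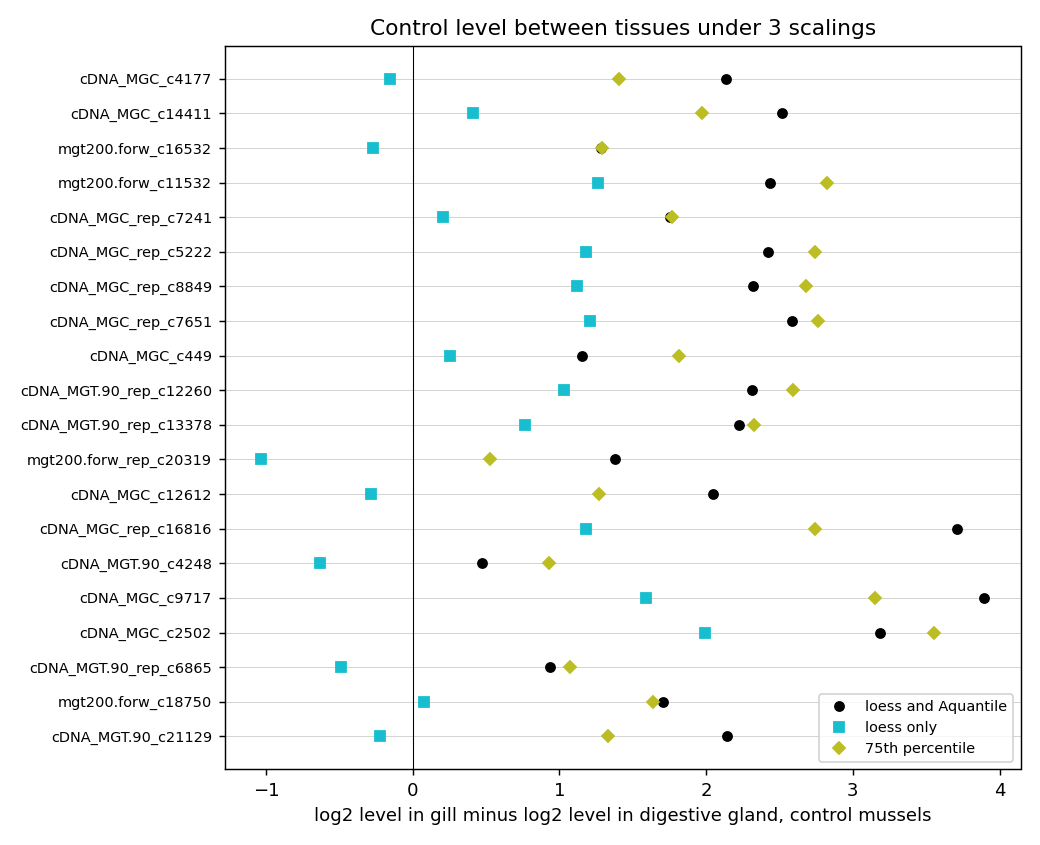
Control level of each member in gill minus that in digestive gland on the log2 scale, under the normalization between arrays and the 2 alternatives. Under the normalization between arrays the members lie between 0.47 and 3.90, all above 0, while with loess alone they run from -1.04 to 1.99.

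How far a member belonged to the set also depended on the processing. Of 5 other ways to compute the ratio, all 5 kept cDNA_MGC_c14411, cDNA_MGC_rep_c7241, mgt200.forw_c16532, mgt200.forw_c11532 and mgt200.forw_rep_c20319. Only 1 of the 5 kept each of cDNA_MGC_c4177, cDNA_MGC_rep_c5222, cDNA_MGC_rep_c8849, cDNA_MGC_c449 and cDNA_MGT.90_rep_c12260. The 5 contigs kept throughout include 3 of the 4 from the forward library. The gill ratio of each of the 20 members stayed below 0 in both replicates under all 5, which the rule favours because the same arrays chose the members.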

How the data were processed

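The sample records and the methods gave the tissue, replicate and dyes of each array. The authors deposited spot-level output of the scanner software (Feature Extraction 10.7.3.1), which holds median intensities and local background, and 1 further table of log2 ratios (red over green). The processing of those log2 values deposited by the authors is not given in the sources used here. Normexp with an offset of 10 and loess matched them (r of 0.9996 or more on each array).

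Members followed from the intensities as stated in the opening of the report, over 61657 spots that are not controls. For the tests, intensities were corrected with normexp (offset 50) and normalized with loess in limma 3.58.1 (R 4.3.3). Spots marked as outliers were left out, spots of a probe and dye swaps were averaged, and both tissues entered 1 fit with 2 residual degrees of freedom. P-values were adjusted by Benjamini-Hochberg across the whole array, with a threshold of 0.05. The dye effect was fitted on the sum of an array and its swap, and levels after Aquantile normalization between arrays. The number of arrays limits the precision.

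Probes named in the text were chosen by rule: the 10 with the lowest mean gill ratio, 3 on each side of the threshold, the members called in gill, and those extreme in replicate gap, digestive gland ratio or level between tissues. All members are named. No contig name was shared by 2 probes. Members and lists were chosen with earlier results of these data known. Gene names, sequences and coordinates were not used here.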

Additional observations from a re-analysis of the deposited data

Results flagged for a closer look

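Among 40 groups of 4 arrays, 20 members in each of the 2 tissues, 2 held an array far from the others. Chance alone marks about 1 in 20 such groups. For cDNA_MGC_rep_c5222 the gill ratios were -2.30, -0.95, -0.94 and -0.69, and the gap of the lowest array, the swap of replicate 1, took up 0.834 of the range, past the critical value of 0.829. For cDNA_MGC_rep_c7651 the digestive gland ratios were -0.72, -0.24, -0.17 and -0.15, and the gap of the swap of replicate 1 took up 0.843 of the range. Both contigs belong to the group of 9 probes with like profiles, and the mean gill ratio of cDNA_MGC_rep_c5222 rests in part on that array.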

How the results depend on the processing

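The number of probes in the set was 20 as chosen, 46 with an offset of 20, 8 with an offset of 100, 49 at a threshold of -0.5, 6 at a threshold of -1, 82 with normexp and loess, 615 with processed signals and 148 with the authors' table. Leaving out 1 replicate gave 20 to 119 probes: 49 without gill replicate 1 and 119 without gill replicate 2. The median gill ratio of the 20 members, -1.11 as chosen, was -1.54, -0.85, -2.26 and -1.85 with offsets of 20 and 100, processed signals and the authors' table, and -0.84 to -1.15 without 1 gill replicate. All 20 stayed below 0 in every gill replicate under these settings. The rule chose them for low gill ratios on the same intensities, so this describes them and tests nothing.

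Beside each count of members called, the share of all probes called stands in brackets. In gill 1 member was called (0.0293%), and 20 with a normexp offset of 0 (1.98%), 14 without background subtraction (1.18%), 0 with median centring (0.0156%), 20 with processed signals (5.02%), 20 with the authors' table (5.44%), 13 without the array named Cy6 (0.878%), 20 among probes well above background (7.99%) and 20 with arrays entered separately and the pair as a block (7.97%). Each left-out replicate gave 0 (0.0% to 0.0585%). In digestive gland 1 was called (17.8%), and 0 with a normexp offset of 0 (10.4%) or median centring (7.69%), 2 with processed signals (13.5%), 4 with the authors' table (19.4%) and 4 with arrays entered separately (28.3%). Without 1 replicate it was 0 to 5: 0 without either digestive gland replicate (9.52% and 4.62%) and 5 without either gill replicate (13.2%). The difference between tissues called 11 members (9.68%), and 6 with median centring (2.73%), 19 with the authors' table (12.2%), 17 among probes well above background (15.1%) and 20 with arrays entered separately (21.6%). Without 1 replicate it called 2 to 11 (1.62% to 3.31%): 3 without digestive gland replicate 1 and 2 without replicate 2. The cause of these shifts was not tested. The dye effect in gill called 0 members (0.0%), and 11 with median centring (20.9%). Called brighter in gill were 20 members (32.4%), and 10 with loess alone (1.78%).

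Gill and digestive gland share replicate numbers. With the replicate block 14 members were called for the difference between tissues (9.17% of all probes) and 20 for the level, for which no share is given. In a fit of the block for each tissue, added after the data had been seen, 0 members were called in gill (0.0% of all probes), where cDNA_MGC_rep_c7241 had a limma adjusted p of 0.0726, and 4 in digestive gland (18.2%). Deviations of same-numbered replicates correlated at 0.162 over all probes, with only 2 pairs. Signal over background is a limit for the 4 members whose exposed gill signal was not well above background on all arrays. The added offset of 50 also weighs on other members with exposed gill intensities below it.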
